A study of Mus musculus with 6 samples.

Results

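The desmosomal cadherin genes encode the desmocollins (Dsc) and desmogleins (Dsg), and their promoters were examined for occupancy by Plakoglobin and by β-catenin in mouse keratinocytes. They were taken from the promoter array by gene symbol, as every sequence whose deposited or current symbol begins with Dsc or Dsg followed by a digit. The choice gave 9 promoter sequences of 8 genes, out of 26200 sequences with a value. These are the desmocollin genes Dsc1 and Dsc2, with 1 sequence each, and the desmoglein genes Dsg1a, Dsg1b, Dsg1c, Dsg2, Dsg3 and Dsg4. Dsg1a has 2 sequences, with the accessions AK029294 and X74335, whose start sites lie 53 bp apart, so they are not independent of each other. Their gene name comes only from the deposited peak lists, that is, because a peak was called there on Plakoglobin array 1. Their high value on that array was therefore fixed by how they were found and is a description. Counts that it enters are given with and without Dsg1a, or say that Dsg1a is among them.

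Desmosomes are the junctions that hold keratinocytes together under mechanical load. The outer parts of desmocollins and desmogleins bind those of the neighbouring cell, and their tails bind Plakoglobin, which connects through plakophilins and desmoplakin to the keratin filaments. In stratified epidermis Dsg3 is known chiefly from the lower layers and Dsg1 and Dsc1 from the upper ones, Dsg2 and Dsc2 are the forms of simple epithelia and heart, and Dsg4 is found in the upper epidermis and the hair follicle. Plakoglobin and its relative β-catenin can also act in the nucleus with TCF/LEF transcription factors. In the mouse these cadherin genes lie side by side on chromosome 18, where Dsg1a, Dsg1b and Dsg1c are close duplicates of each other. Whether probes for these 3 hybridised across the copies was not tested.

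The cells were C57BL/6J keratinocytes held for 4 days in high-calcium medium from confluency, which starts terminal differentiation. Crosslinking used 1% formaldehyde and 2 mM DSG, here a chemical that links proteins to each other and not a desmoglein, and chromatin was sheared to 500 bp. Each of 6 arrays compared ChIP DNA (Cy5) with input DNA (Cy3), 3 with an antibody to Plakoglobin and 3 with one to β-catenin, numbered 1 to 3 within each antibody. All arrays came from wild-type cells in the same state, input was the only background, and the labels do not say whether the arrays of an antibody came from separate cultures, so p-values measure the spread between these arrays, which may be technical.

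Values are log2 ratios of ChIP over input, averaged over a promoter's probes by the authors and then centred here on the median promoter of each array, so 0 is the median promoter. The median before centring ran from 0.15 to 0.45. The arrays of number 2 were the widest, with interquartile ranges of 0.72 and 0.71 against 0.17 to 0.36 on the others. ChIP ratios do not measure expression, so the labelled cell type could not be checked with them. At the promoters of marker genes listed for each cell type, 2 of 4 keratinocyte genes, 2 of 3 fibroblast genes and 2 of 3 melanocyte genes had means above 0 with each antibody. The 1 leukocyte gene measured did so with β-catenin only. Of all named genes, 61.4% had a mean above 0 with Plakoglobin and 56.4% with β-catenin.

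As a family, the desmosomal cadherin promoters sat low, least so on β-catenin arrays 2 and 3, where 4 of 9 lay above 0 on each. Of their 54 values (9 promoters on 6 arrays) 15 lay above the median promoter, or 27.8%, against 49.9% of all values on the arrays. Without Dsg1a it was 11 of 42 values, or 26.2%. The family's median was below 0 on each of the 6 arrays, at -0.11, -0.40 and -0.09 on Plakoglobin arrays 1 to 3 and at -0.16, -0.01 and -0.02 on β-catenin arrays 1 to 3. At most 2 of 6 values were above 0 at 7 of the 9 promoters (5 of 7 without Dsg1a), where 40.5% of all promoters have so few. Neighbours on 1 chromosome are not independent samples, and 2 of the 9 share their start region, so no test was made of the family as a whole.

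The high values were single within an antibody. Arrays of the same antibody also correlated weakly over all promoters (Spearman's rho from -0.007 to 0.288). A centred ratio past 0.5, a level set after the values were seen, was reached on at least 1 array by Dsg3, Dsg1b and both Dsg1a sequences (4 of 9 promoters, or 2 of 7 without Dsg1a, against 52.4% of all), and on at least 2 arrays by Dsg1b alone (1 of 9, or 1 of 7 without Dsg1a, against 16.6%). Dsc1, Dsc2, Dsg1c, Dsg2 and Dsg4 never reached it.

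**Figure D1:**
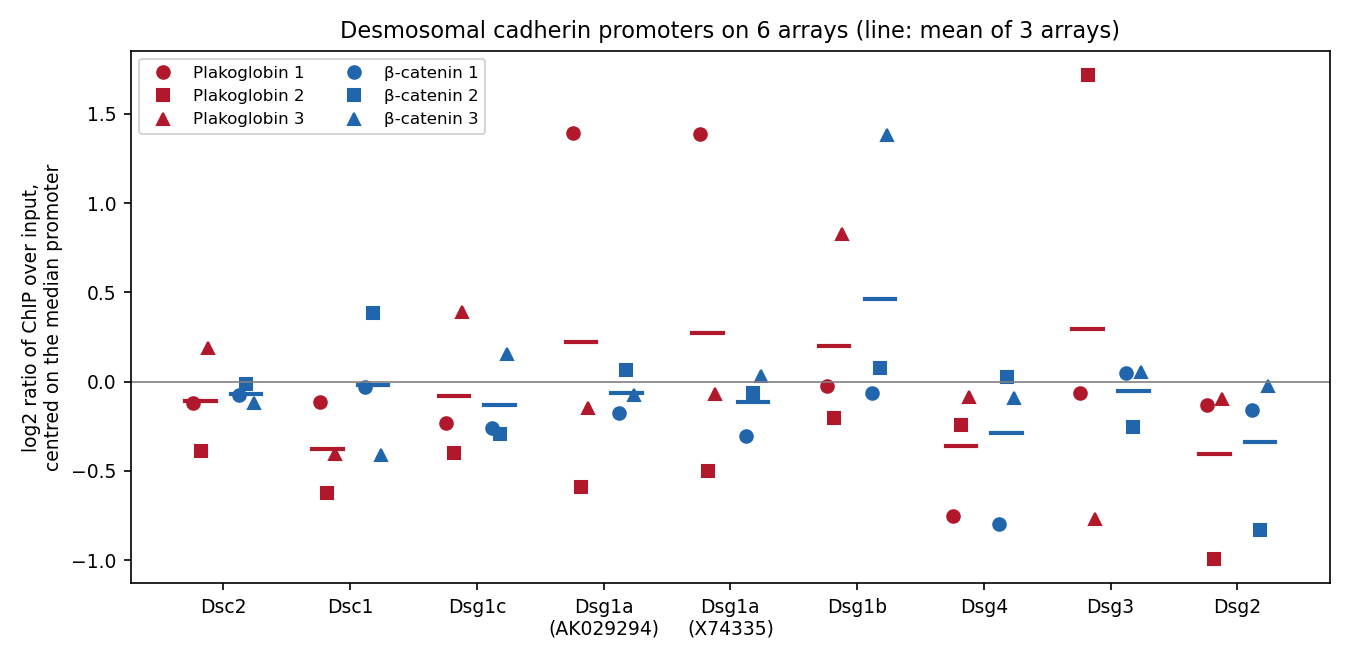
Centred log2 ratio of ChIP over input (vertical axis) at the 9 desmosomal cadherin promoter sequences, with a point for each array (red Plakoglobin, blue β-catenin; circle, square and triangle for numbers 1, 2 and 3) and a line at the mean of 3 arrays. The points past 0.5 are Dsg1a on Plakoglobin array 1, Dsg3 on Plakoglobin array 2 and Dsg1b on both arrays of number 3.

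Dsg3, the desmoglein of the lower epidermis, had the highest single ratio of the family. With Plakoglobin it was -0.07, 1.72 and -0.77 on arrays 1 to 3, and with β-catenin 0.05, -0.26 and 0.05. Only Plakoglobin array 2 was high, and array 3 with the same antibody was the lowest of the 6, so the Plakoglobin values spanned those of β-catenin. On that high array Dsg3 ranked at the 95.3rd percentile of all promoters, and on Plakoglobin array 3 at the 3.35th. The Plakoglobin mean was 0.29 ± 1.28 (SD, n = 3) and the β-catenin mean -0.05 ± 0.18. Without Plakoglobin array 2 the Plakoglobin mean was -0.42, so its sign rests on that array, and it was also negative (-0.07) when arrays were scaled to the same spread. The β-catenin mean was 0.05 without β-catenin array 2.

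Dsg1b was the member that was high with both antibodies, on the arrays of the same number. Its ratios were -0.02, -0.20 and 0.83 on the Plakoglobin arrays and -0.07, 0.08 and 1.38 on the β-catenin arrays. Both arrays of number 3 stood apart, at the 94.0th and 95.6th percentiles, while the other 4 lay between the 30.9th and the 55.7th. The means were 0.20 ± 0.55 for Plakoglobin and 0.46 ± 0.80 for β-catenin (SD, n = 3 each). They were -0.11 without Plakoglobin array 3 and 0.01 without β-catenin array 3.

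At Dsg1a the 2 sequences gave nearly the same values. Over the 6 arrays Pearson's r between them was 0.99. The sequence AK029294 had 1.39, -0.59 and -0.15 on the Plakoglobin arrays and -0.18, 0.07 and -0.08 on the β-catenin arrays, while X74335 had 1.39, -0.50 and -0.07 and then -0.31, -0.06 and 0.03. The high value thus stood on Plakoglobin array 1 and was absent from the β-catenin array of number 1, where the 2 sequences were at percentiles 12.1 and 4.97. The Plakoglobin means were 0.22 ± 1.04 and 0.27 ± 0.99 and the β-catenin means -0.06 ± 0.12 and -0.11 ± 0.17. Without Plakoglobin array 1 the Plakoglobin means were -0.37 and -0.29.

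Dsg1c, the remaining desmoglein 1 duplicate, had -0.23, -0.40 and 0.39 on the Plakoglobin arrays and -0.26, -0.29 and 0.15 on the β-catenin arrays. It was above 0 on both arrays of number 3 and below on the other 4, the same arrays that were high at Dsg1b (r = 0.86 between the genes over 6 arrays that both share, a description). The means, -0.08 ± 0.42 and -0.13 ± 0.25, differed by less than their spread, and the Plakoglobin mean was 0.08 without array 2, 0.01 after quantile normalization and 0.03 after scaling to the same spread.

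The other 2 desmogleins were low with both antibodies on the arrays of 1 number. Dsg4 had -0.76, -0.24 and -0.09 on the Plakoglobin arrays and -0.80, 0.03 and -0.09 on the β-catenin arrays. Both arrays of number 1 placed it among the lowest promoters, at the 0.647th and 0.970th percentiles, while the other 4 arrays had it between the 30.5th and the 51.8th. Dsg2 had -0.13, -0.99 and -0.10 on the Plakoglobin arrays and -0.16, -0.83 and -0.02 on the β-catenin arrays. It was below 0 on all 6 arrays, the only member to be so (1 of 9, against 5.11% of all promoters), and lowest on both arrays of number 2, at percentiles 1.61 and 6.13. The means were -0.36 ± 0.35 and -0.29 ± 0.45 at Dsg4 and -0.41 ± 0.51 and -0.34 ± 0.43 at Dsg2. Without the Plakoglobin array of their low number they were -0.17 at Dsg4 and -0.11 at Dsg2, and without the β-catenin one -0.03 and -0.09.

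Neither Dsc1 nor Dsc2, the desmocollin genes identified by symbol, had a value past 0.5. Dsc1, known from the upper epidermis, had -0.11, -0.62 and -0.40 on the Plakoglobin arrays and -0.03, 0.38 and -0.41 on the β-catenin arrays. It was below 0 on all 3 Plakoglobin arrays, and β-catenin array 2 gave its single value above 0. Its means were -0.38 ± 0.26 and -0.02 ± 0.40, the second 0.18 without β-catenin array 3. Dsc2 had -0.12, -0.39 and 0.19 on the Plakoglobin arrays and -0.08, -0.01 and -0.12 on the β-catenin arrays, and varied least of the members (SD over the 6 arrays 0.19, where 17.5% of promoters had a smaller one). Its means were -0.11 ± 0.29 and -0.07 ± 0.05, and without Plakoglobin array 2 the first was 0.03. A further sequence, which the files name MDSC3a, matched no current symbol in the table used here and was not counted as a member. Its deposited name may stand for another desmocollin, which was not settled here, and its value on Plakoglobin array 1 was past 0.5. It had 0.82, -0.83 and -0.03 on the Plakoglobin arrays and 0.05, -0.76 and -0.18 on the β-catenin arrays, again low on both arrays of number 2.

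Set in order by their Plakoglobin means, the members ran from Dsg3 (0.29) through Dsg1a, Dsg1b (0.20), Dsg1c and Dsc2 (-0.11) to Dsg4 (-0.36), Dsc1 (-0.38) and Dsg2 (-0.41). The place of Dsg1a rests on Plakoglobin array 1, through which it became a member. Without that array its sequences had means of -0.37 and -0.29. By the β-catenin means of the members Dsg1b came first (0.46), Dsc1 followed (-0.02), and Dsg4 (-0.29) and Dsg2 (-0.34) were again last. SDs over 3 arrays reached 1.28 with Plakoglobin and 0.80 with β-catenin, and no neighbours in either order differed beyond their spread.

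The first comparisons asked whether an antibody enriched these promoters over the median promoter. In limma, fitted to all 26200 promoters with Benjamini-Hochberg adjustment, 0 of 9 members passed with Plakoglobin and 0 of 9 with β-catenin, where 0% of all promoters passed with either. Adjusted p-values of the members ran from 0.696 to 0.858 with Plakoglobin and from 0.894 to 0.992 with β-catenin. At an unadjusted p under 0.05 in this fit, which has no replicate block, there were also 0 members in either direction, against 1.64% of promoters above and 2.14% below with Plakoglobin and 0.26% and 1.5% with β-catenin. In the same fit Dsc1 with Plakoglobin had the smallest unadjusted limma p of the members, 0.0627, at a mean of -0.38 with a 95% interval of -0.78 to 0.03. The 3 arrays per antibody limit the precision: the interval for Dsg3 with Plakoglobin ran from -0.66 to 1.25.

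The arrays of a number deviated together. A fit with the number as a block takes differences between numbers out of the error and gave other unadjusted p-values. Its p-values leave out the spread between numbers, so they do not measure whether a low value recurs over numbers. At Dsg2 with Plakoglobin the SE was 0.07 with the block and 0.23 without it. Under the block Dsg2 and Dsg4 were below 0 with both antibodies at an unadjusted p under 0.05, and 0 members were above. With Plakoglobin those 2 of 9 stood beside 10.8% of all promoters below and 1.02% above, and with β-catenin beside 9.21% below and 0.21% above. The limma p at Dsg2 was 0.0025 with Plakoglobin and 0.0054 with β-catenin before adjustment over all promoters, and 0.164 and 0.233 after. At Dsg4 it was 0.0069 and 0.0167 before and 0.209 and 0.337 after, so no member passed.

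Signs were counted next. With Plakoglobin, 3 of 9 members (Dsc1, Dsg2 and Dsg4), or 3 of 7 without Dsg1a, were below 0 on all 3 arrays. This was so at 16.3% of all promoters. None of the 9 members was above 0 on all 3, against 16.8%. The high Dsg1a values on array 1 follow from how these sequences were found. With β-catenin, 2 of 9 members (Dsc2 and Dsg2) were below 0 on all 3, against 15.5%, and 0 were above, against 16.3%. None was above 0 on all 6 arrays, against 6.99% of promoters.

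The study's stated comparison sets Plakoglobin against β-catenin. Leaving Dsg1a aside, the largest differences in mean were at Dsc1 (-0.36, SE 0.24), Dsg3 (0.35, SE 0.58) and Dsg1b (-0.26, SE 0.50). The smallest were at Dsg4 (-0.07, SE 0.29), Dsg2 (-0.07, SE 0.33), Dsg1c (0.05, SE 0.25) and Dsc2 (-0.04, SE 0.19). The Dsg1a sequences had 0.28 (SE 0.48) and 0.39 (SE 0.46), both of which contain the Plakoglobin array 1 value through which they became members. Of the 9 members, 0 passed in limma (adjusted p = 0.9999 at each), where 0% of all promoters did, and 0 had an unadjusted p under 0.05, against 0.569% of promoters higher and 0.16% lower with Plakoglobin. With the number as a block these counts were 0 members, against 0.71% and 0.462%. The Plakoglobin and β-catenin arrays overlapped at all 9, where 2.57% of promoters had all Plakoglobin arrays above all β-catenin arrays and 2.57% had them below. Two-sided exact permutation tests over the arrays gave p from 0.3 to 0.9, and 3 against 3 arrays cannot give less than 0.1.

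These p-values do not show that the antibodies acted alike. The 95% interval of the difference was -1.01 to 1.70 at Dsg3, -1.42 to 0.90 at Dsg1b and -0.93 to 0.21 at Dsc1, and even at Dsc2, the steadiest, it was -0.48 to 0.41. Among the larger differences, that at Dsc1 kept its sign when 1 array was left out (-0.55 to -0.16). Signs of the others turned with single arrays. Without Plakoglobin array 2 the difference at Dsg3 was -0.37, without Plakoglobin array 1 those at Dsg1a were -0.31 and -0.17, and without β-catenin array 3 that at Dsg1b was 0.20.

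Within a number, Plakoglobin and β-catenin differed little at some desmogleins and strongly at others. At Dsg2 the Plakoglobin ratio minus the β-catenin ratio was 0.03, -0.16 and -0.07 for numbers 1, 2 and 3, and at Dsg4 it was 0.04, -0.27 and 0.00. At Dsg1c it was 0.02, -0.11 and 0.24. At Dsg3 it was -0.11, 1.97 and -0.82, so its high Plakoglobin value had no matching β-catenin value. At Dsg1a AK029294 it was 1.57, -0.66 and -0.07, the first of these following from how that sequence was found.

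Several members were extreme in the same direction on both arrays of a number. Of the 9, 4 were among the highest 10% or among the lowest 10% of promoters on both arrays of a number, namely Dsg4 (number 1, low), Dsg2 (number 2, low), Dsc1 (number 3, low) and Dsg1b (number 3, high). Of all promoters, 17.3% were so on at least 1 of the 3 numbers. Number 3 alone gave 8.42%, number 1 gave 5.61% and number 2 gave 4.84%. On 2 arrays of the same antibody 1 of 9 members was so (Dsc1), against 12.5% of promoters over 6 pairs, and on 2 arrays sharing neither antibody nor number 1 of 9 (Dsc1 again), against 11.7% over 6 pairs. This limit of 10% was chosen after the values were seen.

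**Figure D2:**
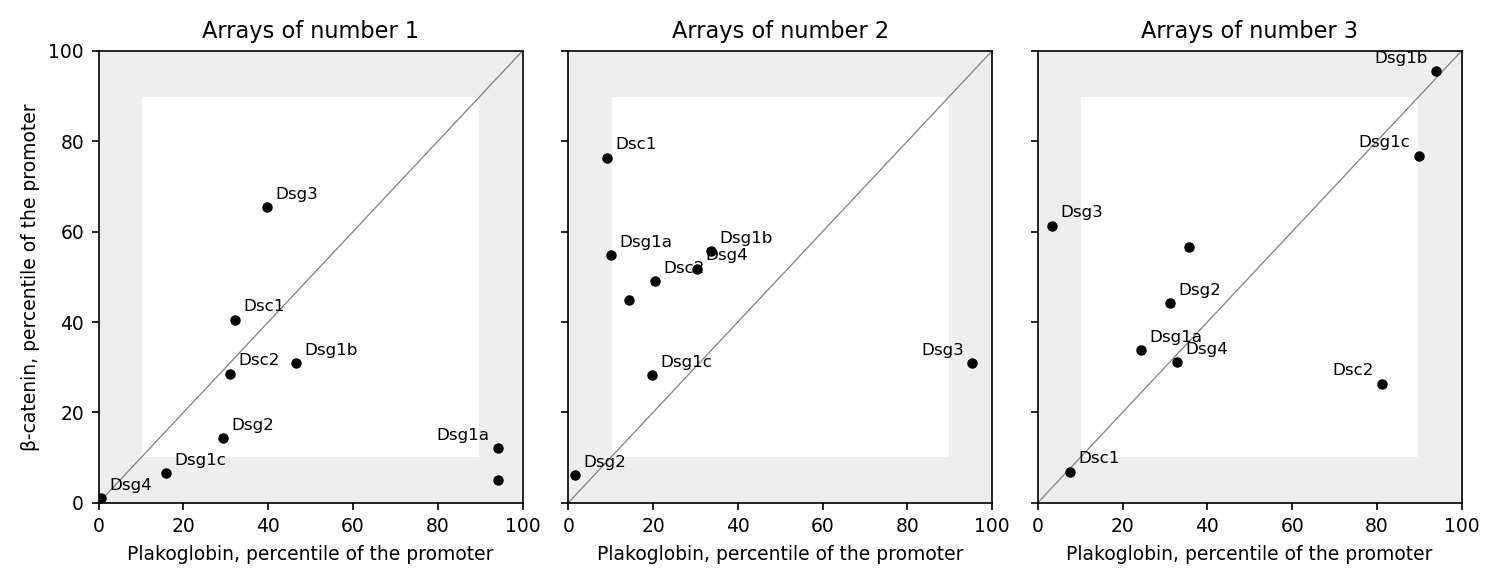
Percentile of each desmosomal cadherin promoter among all promoters on the Plakoglobin array (horizontal) and the β-catenin array (vertical) of the same number, with 1 panel per number and the lowest and highest 10% shaded. Dsg4 sits in the low corner of number 1, Dsg2 in that of number 2 and Dsc1 in that of number 3, Dsg1b is in the high corner of number 3, and Dsg1a (number 1) and Dsg3 (number 2) are high with Plakoglobin only. Both Dsg1a sequences are drawn, and the point without a name in each panel is X74335.

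The authors' peak lists add where within a promoter peaks were called. Peaks were called per array, and no source used here names the genome build of the coordinates. Dsg1a had 2 peaks on Plakoglobin array 1, at 20733748 to 20733880 and 20734521 to 20734640 of chromosome 18, with deposited distances of -573 and 193 bp from the start site of AK029294 at 20734387, negative being upstream. Their false discovery rates were 0.0128 and 0.000993, and they ranked 1374 and 1185 of 2524 peaks by the authors' score. Both were therefore of middle rank in a long list.

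Dsg3 had a peak with each antibody, on arrays of different numbers. The Plakoglobin peak on array 2 (20915765 to 20915994, distance -564 from the start site at 20916444) had a false discovery rate of 0.0095 and ranked 697 of 2684. The β-catenin peak on array 3 (20916035 to 20916504, distance -174) had a rate of 0.122 and ranked 1830 of 1958. The peaks did not overlap, with 41 bp from the end of the first to the start of the second. On β-catenin array 3 the mean over the whole Dsg3 promoter was at 0.05 despite the peak.

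Dsg1b also had a peak with each antibody, both on arrays of number 3. The Plakoglobin peak (20768103 to 20768692, distance -104 from the start site at 20768502) spanned the start site, with a false discovery rate of 0.0406 and rank 1711 of 1739. The β-catenin peak (20767423 to 20767932, distance -824) lay upstream, with a rate of 0.122 and rank 1830 of 1958. They too did not overlap, with 171 bp between them, and both stood near the end of their lists. The gaps at Dsg3 and Dsg1b are smaller than the 500 bp to which chromatin was sheared. Whether the 2 proteins lay at separate places therefore cannot be told from these peaks. Dsc1, Dsc2, Dsg1c, Dsg2 and Dsg4 had no peak on any array.

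**Figure D3:**
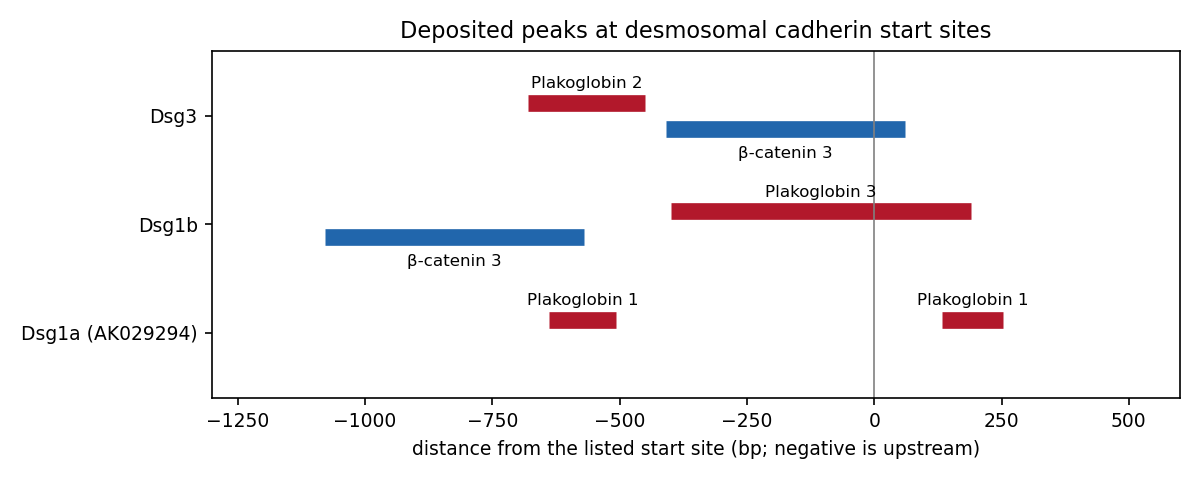
Deposited peaks at the desmosomal cadherin start sites, as distance in bp from the listed start site (horizontal axis, negative upstream), with red bars for Plakoglobin and blue for β-catenin and the array number beside each. The Plakoglobin and β-catenin peaks of Dsg3 and of Dsg1b do not overlap, but their gaps are smaller than the 500 bp to which chromatin was sheared. Dsg1a has Plakoglobin peaks on both sides of its start site.

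The members' peaks were then counted beside those of all accessions. Of the 9 member promoters, 2 had a peak on Plakoglobin array 1 (both Dsg1a, against 13% of accessions), 1 on array 2 (13.4%) and 1 on array 3 (8.44%). With β-catenin there were 0 on array 1 (2.42%), 0 on array 2 (2.38%) and 2 on array 3 (9.33%). Over the arrays of an antibody, 4 members had a Plakoglobin peak (30% of accessions) and 2 a β-catenin peak (13.4%), and 4 had either (38.3%). Without Dsg1a, whose name rests on its peak, 2 of 7 promoters had a Plakoglobin peak and the same 2 a β-catenin one. No member had a peak on 2 arrays of the same antibody. The share of all accessions with such a repeat was not counted, so this is not a trait of the family. With peaks limited to a false discovery rate of at most 0.05, the same 4 members kept a Plakoglobin peak (22.3% of accessions), or the same 2 of 7 without Dsg1a. Both β-catenin peaks were lost, leaving 0 members (9.07%). With peaks limited to 500 bp from the start site, the Plakoglobin peak of Dsg3 and the β-catenin peak of Dsg1b were lost. That left 3 members with a Plakoglobin peak (17.7%), namely both Dsg1a sequences and Dsg1b, and 1, Dsg3, with a β-catenin peak (7.74%).

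At the values past 0.5 the probes of a promoter differed widely. The spread over its probes (SD, log2) was 1.85 at Dsg3 on Plakoglobin array 2, 1.53 and 1.23 at the Dsg1a sequences on Plakoglobin array 1, and 1.17 and 1.87 at Dsg1b on the Plakoglobin and β-catenin arrays 3. These lie between the 92.3rd and 97.9th percentiles of probe spread on their arrays. High promoters in general had wide probe spread: on Plakoglobin array 2 the median was 1.26 at promoters past 0.5 and 0.61 at the rest. The deposited median over the probes, which a few bright probes move less, was still high at these places, at 1.49 for Dsg3, 1.24 and 1.36 for Dsg1a, and 0.78 and 0.79 for Dsg1b (centred log2). At Dsg1b on β-catenin array 3 it was thus well under the probe mean of 1.38. At the lowest values of Dsg2, on the Plakoglobin and β-catenin arrays 2, the spread was smaller, at 0.42 and 0.44, while at the low value of Dsg3 on Plakoglobin array 3 it was 0.99. At Dsg4 it was 0.51 and 0.71 on the Plakoglobin and β-catenin arrays 1, the second at the 96.3rd percentile of that array. The centred probe medians of Dsg4 there were -0.54 and -0.41, against means of -0.76 and -0.80. At Dsg3 on Plakoglobin array 3 the probe median was -0.385, against a mean of -0.77.

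**Figure D4:**
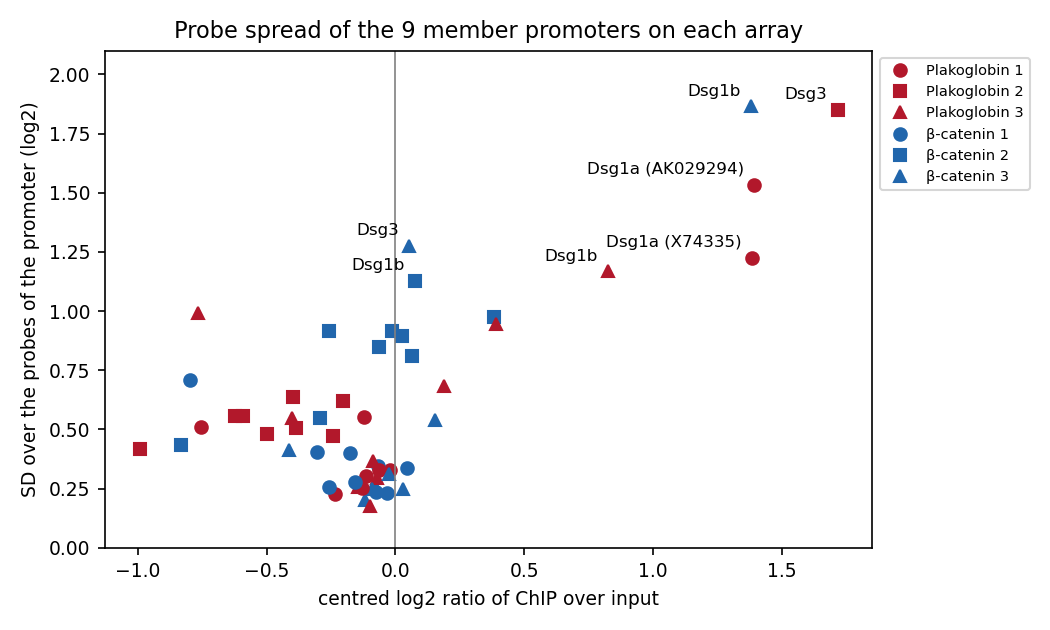
Standard deviation over a promoter's probes (vertical axis, log2) against its centred log2 ratio (horizontal axis) for the 9 desmosomal cadherin promoters on 6 arrays, coloured by antibody and shaped by number. The 5 points past 0.5 have probe SDs from 1.17 to 1.87, and Dsg3 on β-catenin array 3 has 1.28 at a ratio of 0.05.

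The genes whose proteins work with the desmosomal cadherins were set beside them, by lists chosen with earlier results of these data known. A gene with several sequences was represented by their mean. Of 39 genes measured in 5 lists, 0 passed in limma in any comparison (lowest adjusted p = 0.696), and 12 listed genes, among them Dsp and Lef1, were not analysed here. Among all 15647 named genes 61.4% had a Plakoglobin mean above 0 (median 0.08) and 56.4% a β-catenin mean above 0 (median 0.04). The 8 desmosomal cadherin genes, by the same count, had 3 Plakoglobin means above 0 (median -0.09) and 1 β-catenin mean (median -0.08). Among the 3 is Dsg1a, a member through its peak on Plakoglobin array 1. Its sequences had Plakoglobin means of -0.37 and -0.29 without that array.

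The genes of the desmosomal plaque had 5 of 8 above 0 with each antibody, with medians of 0.14 and 0.02. Pkp1, a plakophilin of the upper epidermis, had its high value on Plakoglobin array 1 (2.27, against -0.75 and -0.03 on arrays 2 and 3). On that array 13.3% of all promoters were past 0.5. Pkp4, another armadillo protein of junctions, had means of 0.59 ± 0.60 for Plakoglobin and 0.40 ± 0.54 for β-catenin and a peak on 1 array of each. Ppl, which encodes the plaque protein periplakin, had 0.24 ± 0.41 and -0.02 ± 0.09, and Perp, a desmosome-associated membrane protein, -0.02 ± 0.23 and 0.12 ± 0.05. Each of these Plakoglobin SDs was as large as its mean or larger.

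Of the keratins, all 4 measured had a Plakoglobin mean above 0 (median 0.30) and 1 of 4 a β-catenin mean above 0 (median -0.07), but 3 of the 6 array medians were below 0, among them -0.62 on Plakoglobin array 2. Krt6a, a keratin of wound-activated epidermis, had 2.64 on Plakoglobin array 3 and values from -0.54 to -0.04 on the other 5. Adherens junction genes had 6 and 7 of 8 above 0 (medians 0.22 and 0.23), with medians above 0 on all 6 arrays (0.017 to 0.34). All named genes also had medians above 0 on all 6 arrays (0.007 to 0.055). Cdh1, which encodes the classical cadherin E-cadherin, had 0.26, 2.43 and 0.20 on the Plakoglobin arrays and 0.14, 0.68 and 0.21 on the β-catenin arrays, above 0 on all 6 arrays, unlike any desmosomal cadherin.

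The proteases and inhibitors that act on desmosomal cadherins had 4 and 3 of 5 above 0 (medians 0.08 and 0.02), with Klk7, a kallikrein of the shedding stratum corneum, at 0.25 ± 0.28 and 0.11 ± 0.18. Transcription factors linked to these genes had 10 and 12 of 14 above 0 (medians 0.14 and 0.19). Cebpa and Cebpb, C/EBP factors of differentiating keratinocytes, had Plakoglobin means of 0.69 ± 0.97 and 0.59 ± 0.64 and a Plakoglobin peak on 1 array each. Over the 5 lists, 15 of the 39 genes had a Plakoglobin peak on at least 1 array, where 30.2% of all named genes had one, and 3 had a β-catenin peak, where 13.0% did.

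**Figure D5:**
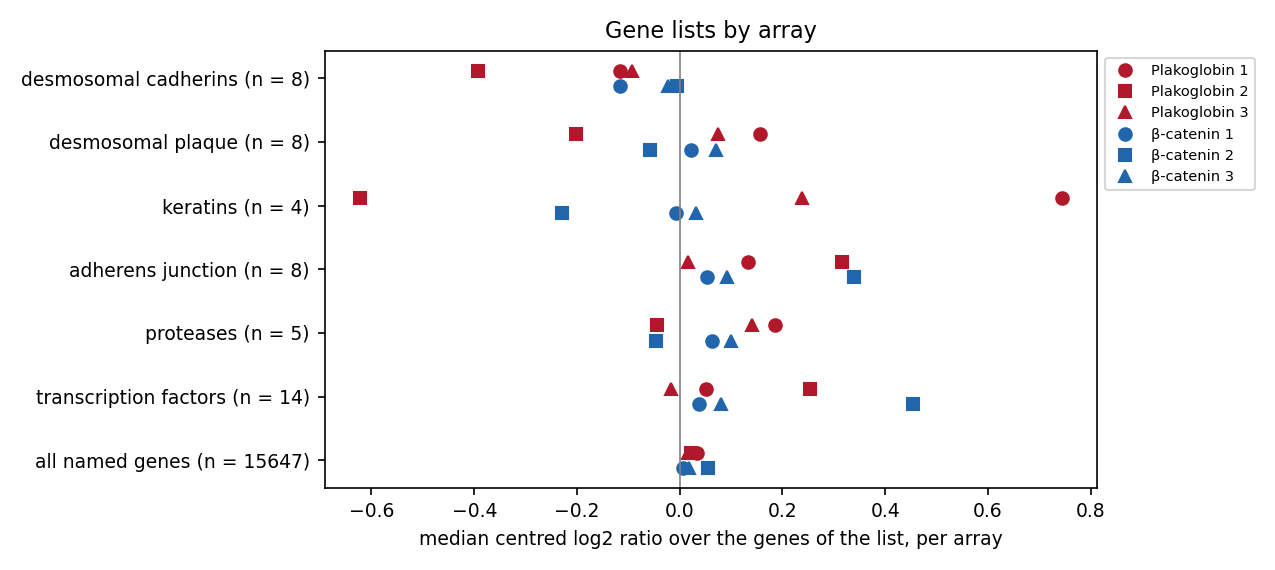
Median centred log2 ratio of each gene list on each array (red Plakoglobin, blue β-catenin; circle, square and triangle for numbers 1, 2 and 3), with the number of genes measured. The desmosomal cadherins lie below 0 on all 6 arrays, at -0.005 and -0.023 on β-catenin arrays 2 and 3. The adherens junction genes and all named genes lie above 0 on all 6, and the keratins reach from -0.62 to 0.75.

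On the chromosome, the nearest named promoters outside the cadherin cluster were those of Cdh2, which encodes N-cadherin, and Ttr, which encodes transthyretin. The means of Cdh2 were 0.23 ± 0.23 for Plakoglobin and 0.50 ± 0.48 for β-catenin, and it was above 0 on all 6 arrays. Ttr had 0.18 ± 0.53 and 0.57 ± 0.44. Both flanking promoters thus had higher means with β-catenin than any cadherin member, their spread overlapping that of Dsg1b.

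Promoters with the most similar profile over the 6 arrays were looked up among 15721 named promoters with a single sequence. They were Mup5 for Dsg3 (Pearson r = 0.990), Prkch for Dsg1b (0.992), Tssk6 for Dsg1a AK029294 (0.999), Olfm2 for Dsg1c (0.997), Thy1 for Dsg2 (0.998), Sbf2 for Dsg4 (0.988), Gfral for Dsc1 (0.994) and Pigu for Dsc2 (0.992). With 6 points that share their arrays such values are easily reached: 110 promoters had r over 0.95 with Dsg3 and 523 with Dsg2.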

How the data were processed

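ChIP-chip on NimbleGen promoter arrays gave, per array, a deposited log2 ratio (ChIP against input) per promoter sequence, and per the file headers it is the mean, median or SD over that sequence's probes. The probe normalization and genome build are not given in the sources used here. Deposited peak lists carry a score of unknown scale and a false discovery rate (q-value), per the file headers, and were called per array, not pooled. Of 26275 sequences 75 had no value. Names were updated through RefSeq GRCm38.p6 (names and gene order only): 12527 sequences matched by accession, 1710 by symbol and 1794 by synonym, 813 kept the deposited name and 9356 stayed unnamed.

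Each array was centred on its median. A model with 1 mean per antibody was fitted in limma 3.58.1 to 26200 promoters under R 4.3.3 (eBayes with trend, two-sided, Benjamini-Hochberg threshold 0.05) and was tested on simulated data. Exact permutation tests, counts and figures used Python 3.11.15, numpy 2.4.6, pandas 2.3.3, scipy 1.17.1 and matplotlib 3.10.9. Alternatives were other scalings, the probe median, other eBayes settings, single-sequence accessions, the replicate number as a block and leaving out each array. Arrays of the same number deviated together from their antibody's mean (r = 0.203, 0.235 and 0.218 for numbers 1 to 3, and -0.154 to -0.0506 for other pairs). Deviations from a mean cancel out, so positive values for the same number push the other pairs to negative ones. Without taking deviations, Spearman's rho was 0.347, 0.376 and 0.414 for numbers 1 to 3. It was 0.007 to 0.27 for arrays sharing neither antibody nor number. The pairing comes from these correlations, since the labels do not state that a number marks a shared batch.

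The members and lists were chosen with earlier results of these data known. All members are described. From the fixed lists examples were taken after their values were seen, and of the 3 promoters with the highest Pearson r per member the first is named. No sequence is printed for these promoters.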

Additional observations from a re-analysis of the deposited data

How the results depend on the processing

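No member passed the threshold under any of the 14 alternatives per comparison (lowest limma adjusted p of a member 0.164, for Dsg2 with Plakoglobin under the replicate block), and no promoter of any kind did (lowest 0.137). The replicate block left all means as they were and changed no adjusted call, but Dsg2 and Dsg4 then had an unadjusted p under 0.05 with both antibodies, where 0 members had one without it. At Dsg2 it gave -0.41 for Plakoglobin (SE 0.07) and -0.34 for β-catenin (adjusted p = 0.233), and at Dsg4 -0.36 (adjusted p = 0.209). The SEs and p-values of the block leave out the spread between numbers. Of 378 member values under alternatives, 41 changed sign, and since none was called these are uncalled values near 0 or resting on 1 array. The cause was not tested beyond what each setting does. Without centring, which adds back array medians of 0.15 to 0.45, Plakoglobin gave 0.18 at Dsc2 and 0.21 at Dsg1c, and β-catenin gave 0.19 at Dsc2, 0.24 at Dsc1, 0.13 at Dsg1c, 0.20 and 0.15 at the Dsg1a sequences and 0.21 at Dsg3. Low and high are thus relative to the median promoter. Quantile normalization gave 0.01 at Dsg1c (Plakoglobin), 0.021 at Dsg3 (β-catenin) and 0.091 for the difference at Dsc2. Scaling to the same spread gave 0.025 at Dsg1c and -0.067 at Dsg3 (Plakoglobin), 0.014 at Dsg3 (β-catenin), and differences of 0.085 at Dsc2, 0.26 at Dsg4, -0.081 at Dsg3 and 0.006 at Dsg2. The probe median gave a difference of -0.07 at Dsg1c.

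Leaving out 1 array, Plakoglobin means ran from -0.25 to 0.034 at Dsc2, -0.32 to 0.078 at Dsg1c, -0.37 to 0.62 and -0.29 to 0.66 at the Dsg1a sequences AK029294 and X74335, -0.11 to 0.40 at Dsg1b and -0.42 to 0.83 at Dsg3. β-catenin means ran from -0.22 to 0.18 at Dsc1 and -0.10 to 0.051 at Dsg3. Differences ran from -0.19 to 0.10 at Dsc2, -0.18 to 0.21 at Dsg1c, -0.31 to 0.69 and -0.17 to 0.77 at Dsg1a, -0.58 to 0.20 at Dsg1b, -0.33 to 0.12 at Dsg4, -0.37 to 0.88 at Dsg3 and -0.32 to 0.22 at Dsg2. The remaining members and comparisons kept their sign. Counted over both antibodies, peaks at a false discovery rate of at most 0.05, or within 500 bp of the start site, were found at 3 member genes each, as with all peaks. By antibody, the first limit took β-catenin from 2 genes to 0 and left Plakoglobin at 3, and the second took β-catenin from 2 to 1 and Plakoglobin from 3 to 2. Dsg1a, whose name rests on its peak, is in each of these Plakoglobin counts and in the counts over both antibodies. Leaving out 1 array, chosen after seeing the data, left 2 or 3. The groups overlapped at all 9 promoters under every scaling and with the probe median. With each gene's highest sequence in place of the mean, the protease list's β-catenin median was 0.11 in place of 0.02.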
